A study of Mus musculus with 10 samples.

Results

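The mitochondrial branch of folate metabolism was examined in the mammary gland through 10 genes: Shmt2, Mthfd2, Mthfd2l, Mthfd1l, Aldh1l2, Slc25a32, Sardh, Dmgdh, Gldc and Amt. They were chosen by the known role of their proteins in the pathway, at a time when results of the diet comparison were already known, and matched by symbol to 10 of the 46983 genes in the count files. Their differences between diets are therefore given as a description, with p-values taken from a fit over all genes. The mice were virgin C57BL/6 females, with no genetic change given in the labels, and 1 library was made from the right thoracic mammary fat pad of each mouse at postnatal day 130. The control group (CFA, n = 5) had been fed 1 mg folic acid (FA) per kg of diet and the high group (HFA, n = 5) 5 mg per kg, and all 10 mice were then kept on the same maintenance diet until the tissue was taken. The comparison thus asks whether expression differed after the supplement had ended. CFA libraries are named T1224, T1234, T1314, T1324 and T1334, and HFA libraries T2214, T2224, T2234, T2314 and T2334. The tissue is a whole fat pad, so fewer cells of a type and less RNA per cell cannot be told apart in any value below.

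Mitochondria take serine and other small donors apart and load the carbon released onto tetrahydrofolate, the carrier made from dietary folate. SHMT2 moves carbon from serine to the carrier, MTHFD2 and MTHFD2L oxidise it, and MTHFD1L releases it as formate, which leaves the organelle and feeds purine, thymidylate and methyl group synthesis in the cytosol. ALDH1L2 instead burns the carbon to CO2 with production of NADPH. The carrier enters through the transporter SLC25A32, and further carbon comes from choline breakdown (DMGDH, SARDH) and from glycine (the glycine cleavage proteins GLDC and AMT). MTHFD2 is known for high levels in embryonic, dividing and activated immune cells and low levels in most resting adult tissue.

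The genes lie apart in the genome. In the GRCm38 annotation (GENCODE M21) they are all protein coding. Shmt2 (ENSMUSG00000025403) lies at chr10:127517123-127522444 on the minus strand, Mthfd2 (ENSMUSG00000005667) at chr6:83305691-83325908 on the minus strand, Mthfd1l (ENSMUSG00000040675) at chr10:3973118-4167081 on the plus strand and Aldh1l2 (ENSMUSG00000020256) at chr10:83487450-83534140 on the minus strand. Aldh1l2 shares 14.1% of its exon bases with D10Wsu102e, Dmgdh 6.30% with AW495222, Sardh 3.46% with the antisense gene Sardhos and Shmt2 1.03% with Ndufa4l2. Reads within those stretches could have gone to either gene or to neither.

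Promoter windows of RefSeq (GRCm38.p6, from 250 bases before to 50 bases after the start) were found for 8 of the 10 genes, all but Aldh1l2 and Slc25a32. The Mthfd2 and Sardh windows lie inside the bounds of their genes in GENCODE M21, so their RefSeq starts differ from the outermost 5′ ends there. The windows of Mthfd2, Mthfd1l and Shmt2 are shown because these were the 3 genes highest in the HFA library T2334 relative to the other HFA libraries, as described below. Capitals mark CCAAT (or ATTGG on the other strand), the letters of the CCAAT box, and CGCATGCG, the core bound by the factor NRF1. Both motifs were searched after the sequences had been read.

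Mthfd2, chr6:83317555-83317854, minus strand: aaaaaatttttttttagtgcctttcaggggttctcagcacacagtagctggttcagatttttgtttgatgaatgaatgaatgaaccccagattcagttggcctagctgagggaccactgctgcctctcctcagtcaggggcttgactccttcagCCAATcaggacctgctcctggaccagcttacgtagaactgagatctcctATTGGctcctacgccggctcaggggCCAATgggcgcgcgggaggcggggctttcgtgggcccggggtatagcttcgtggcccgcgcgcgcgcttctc

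Mthfd1l, chr10:3972825-3973124, plus strand: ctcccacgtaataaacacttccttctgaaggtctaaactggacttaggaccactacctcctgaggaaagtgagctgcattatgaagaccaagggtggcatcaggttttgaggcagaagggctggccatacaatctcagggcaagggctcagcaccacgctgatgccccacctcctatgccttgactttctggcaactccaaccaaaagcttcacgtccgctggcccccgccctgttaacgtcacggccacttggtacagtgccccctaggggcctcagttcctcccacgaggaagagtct

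Shmt2, chr10:127522395-127522694, minus strand: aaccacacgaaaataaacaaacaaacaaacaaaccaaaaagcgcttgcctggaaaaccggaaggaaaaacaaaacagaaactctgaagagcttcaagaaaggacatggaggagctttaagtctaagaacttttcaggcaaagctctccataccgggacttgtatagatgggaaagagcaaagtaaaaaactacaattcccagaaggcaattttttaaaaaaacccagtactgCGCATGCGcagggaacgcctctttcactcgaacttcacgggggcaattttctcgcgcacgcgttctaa

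The Mthfd2 window held 3 CCAAT boxes and the Mthfd1l and Shmt2 windows 0, while 37.4% of all 32851 windows held at least 1. The Shmt2 window held 1 NRF1 core, which was in 1.87% of all windows. Gldc and Amt had 1 CCAAT box each. TGATGNAA, the composite element of the stress factor ATF4 (in 3.97% of all windows), and the E-box CACGTG (7.15%) were searched on both strands and were in none of the 8 windows. No match says only that these letters are not in this stretch. GC content was 55.7% for Mthfd2, 55.3% for Mthfd1l and 42.7% for Shmt2, against a median of 52.7% over all windows. Mthfd2l and Dmgdh were the richest in CpG, with 19 and 25 CpG sites against a median of 7.

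Libraries held 7672199 to 14829291 counts on genes. Of the 10 libraries, 3 stood apart in markers of lymphocytes. The summed level of 8 B cell markers (Cd79a, Ms4a1 and Pax5 among them) was 335 CPM (counts relative to the library total after TMM scaling) in T1234, 870 in T1334 and 2581 in T2334, against 4.12 to 5.97 in the other 7 libraries. The sum of 8 T cell markers was 213, 478 and 1221 CPM in these libraries and 9.05 to 25.9 elsewhere. T2334 also had 836 CPM of 9 skeletal muscle markers, against 8015 in T1234 and 21059 to 66416 in the other 8. Mammary markers were present in all 10 libraries, with luminal sums of 365 to 1989 CPM and basal sums of 97.8 to 879 CPM, the lowest of both in T2334. Results are therefore given with and without T1234, T1334 and T2334, which leaves 3 CFA and 4 HFA libraries.

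Shmt2 was the most abundant of the mitochondrial genes and Dmgdh was not seen at all. Per kilobase of exon, the mean over 10 libraries was 10.4 CPM for Shmt2, 4.29 for Amt, 3.77 for Sardh, 3.40 for Slc25a32, 2.49 for Mthfd2, 1.93 for Mthfd1l, 1.74 for Mthfd2l, 1.14 for Gldc and 0.673 for Aldh1l2. Shmt2 was above Amt in 10 of 10 libraries, Mthfd2l above Gldc in 10 and Gldc above Aldh1l2 in 9. Mthfd1l was above Mthfd2l in only 3 of 10 libraries although its mean was higher, so these neighbours cannot be put in order. Sardh was above Slc25a32 in 7 and Slc25a32 above Mthfd2 in 8 of 10. The cytosolic counterparts reached 22.0 CPM per kilobase for Aldh1l1, 9.64 for Mthfd1 and 6.58 for Shmt1. Mitochondrial Shmt2 was thus higher than its cytosolic counterpart on this scale, whereas Mthfd1l and Aldh1l2 were lower than theirs.

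**Figure D1:**
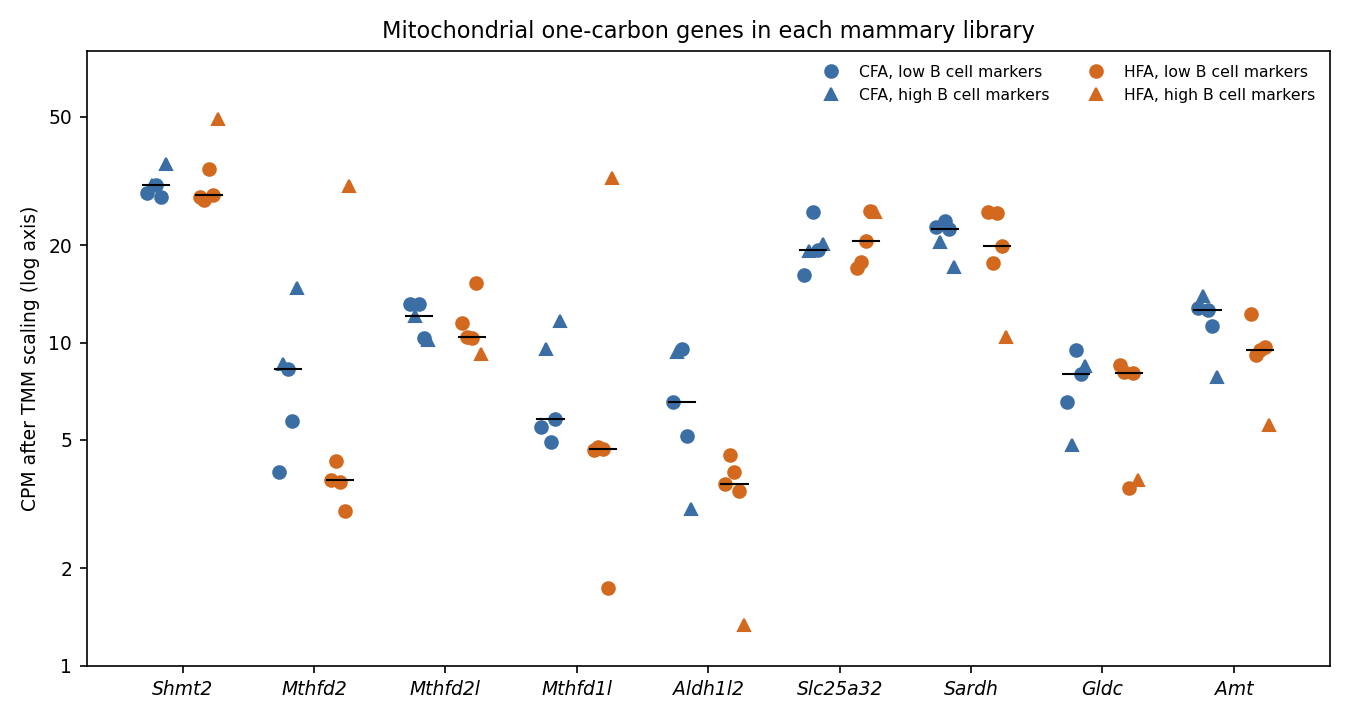
CPM after TMM scaling (log axis) of the 9 detected genes in each library, with CFA in blue, HFA in orange, triangles for the 3 libraries with high B cell markers and a line at the median of each diet group. The triangle of T2334 stands above all other libraries for Mthfd2 (30.6 CPM) and Mthfd1l (32.3 CPM) and below them for Aldh1l2 (1.34 CPM).

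Shmt2, which encodes the enzyme that moves carbon in from serine, had transcript levels within 27.7 to 35.7 CPM in 9 of the 10 libraries. It measured 29.0, 30.7, 30.7, 28.2 and 35.7 CPM in the CFA libraries T1224, T1234, T1314, T1324 and T1334, a mean of 30.9 ± 2.91 (SD, n = 5). In the HFA libraries T2214, T2224, T2234, T2314 and T2334 it measured 28.2, 27.7, 34.3, 28.6 and 49.1 CPM, a mean of 33.6 ± 9.06 (SD, n = 5). The groups overlapped, and T2334 alone was far above the rest. The log2 fold change (HFA against CFA) was 0.12 (SE 0.17) over 10 libraries and 0.02 (SE 0.12) over the 7 with low B cell markers.

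Mthfd2, which encodes the oxidising enzyme of dividing cells, was the gene that spread most together with Mthfd1l. It measured 3.98, 8.56, 8.26, 5.71 and 14.8 CPM in the CFA libraries, in the same order as above, with a mean of 8.26 ± 4.10 (SD, n = 5). In the HFA libraries it measured 3.76, 4.31, 3.69, 3.02 and 30.6 CPM, a mean of 9.08 ± 12.0 (SD, n = 5). The other 4 HFA libraries were at or below 4.31 CPM, and of the CFA libraries only T1224 was as low. T2334 was 8.22 times the median of the other HFA libraries. The log2 fold change was 0.15 (SE 0.69) over 10 libraries and −0.70 (SE 0.28) over the 7. Its direction was not stable. The log2 fold change was −1.20 without T2334 alone and −0.09 without T1224, but 0.10 without T1234 and 0.47 without T1334. By other methods over all 10 libraries it ran from −0.62 in limma voom with quality weights to 0.15 with RLE scaling.

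Mthfd2l, whose product catalyses the same step and is known for its expression in adult tissues, did not follow its paralogue. It measured 13.1, 12.1, 13.1, 10.3 and 10.1 CPM in the CFA libraries and 11.5, 10.4, 10.4, 15.3 and 9.23 CPM in the HFA libraries. The means were 11.8 ± 1.45 and 11.4 ± 2.33 (SD, n = 5 each), and T2334 was the lowest library, not the highest. The log2 fold change was −0.05 (SE 0.17). Its correlation with Mthfd2 over 10 libraries was −0.559 (log2 CPM), a description over points that share their libraries and depth.

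Mthfd1l, which encodes the enzyme that releases formate, had the widest range of the 10 genes, 18.6-fold between its lowest and highest library. The CFA libraries measured 5.49, 9.54, 4.94, 5.78 and 11.6 CPM, a mean of 7.48 ± 2.95 (SD, n = 5). The HFA libraries measured 4.65, 4.74, 4.68, 1.74 and 32.3 CPM, a mean of 9.63 ± 12.8 (SD, n = 5). The 3 highest values belonged to the 3 libraries with high B cell markers, and among the other 7 every HFA library was below every CFA library. The log2 fold change was 0.38 (SE 0.69) over 10 libraries and −0.46 (SE 0.33) over the 7, and −0.96 without T2334 alone.

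Aldh1l2, whose product oxidises the carbon to CO2, was the lowest detected gene per kilobase and the only one with an unadjusted p below 0.05. It measured 6.52, 9.32, 9.56, 5.13 and 3.06 CPM in the CFA libraries, a mean of 6.72 ± 2.77 (SD, n = 5). The HFA libraries measured 3.65, 4.49, 3.97, 3.47 and 1.34 CPM, a mean of 3.38 ± 1.21 (SD, n = 5). The groups overlapped only through the CFA library T1334, at 3.06 CPM. T1334 and T2334, the libraries with the highest B cell markers, were the lowest of all 10, while T1234, which has high B cell markers too, was among the highest. The log2 fold change was −0.99 (SE 0.38), with an unadjusted p of 0.0256 and an adjusted p of 0.655 by edgeR's quasi-likelihood test. Over the 7 libraries it was −0.86 (SE 0.25, adjusted p = 0.0901 in edgeR). These values rest on 21 to 147 counts per library. The unadjusted p was above 0.05 without the CFA library T1234 (0.0552) or without T1314 (0.0594) in edgeR.

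Slc25a32, the folate and flavin carrier of the inner membrane, was steady. It measured 16.1, 19.2, 25.4, 19.4 and 20.2 CPM in the CFA libraries and 17.0, 17.8, 20.6, 25.5 and 25.4 CPM in the HFA libraries. The means were 20.1 ± 3.34 and 21.3 ± 4.05 (SD, n = 5 each), and the log2 fold change was 0.08 (SE 0.17). The highest levels were spread over T1314, T2314 and T2334.

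Of the choline branch, Sardh was measured and Dmgdh was not. Sardh, which takes the last methyl group from sarcosine, measured 22.7, 20.4, 23.9, 22.5 and 17.1 CPM in the CFA libraries and 25.4, 17.6, 25.1, 19.8 and 10.4 CPM in the HFA libraries. The means were 21.3 ± 2.67 and 19.7 ± 6.18 (SD, n = 5 each), with a log2 fold change of −0.12 (SE 0.23), and T2334 was the lowest library. Dmgdh had 0 counts in all 10 libraries, of 120554468 counts in all. This allows a level of up to 0.191 to 0.426 CPM per library, taking 3 counts as the limit for a count of 0, which covers counting error only. Bhmt, which supplies dimethylglycine in liver, and its paralogue Bhmt2 also had 0 counts in 10 libraries, and Gnmt and Pipox had 79 and 29 counts in all.

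The glycine cleavage genes were at low levels in T2334. Gldc, the decarboxylase, measured 6.52, 4.83, 9.49, 8.02 and 8.43 CPM in the CFA libraries and 8.52, 8.11, 3.55, 8.05 and 3.76 CPM in the HFA libraries. Its means were 7.46 ± 1.82 and 6.40 ± 2.51 (SD, n = 5 each), its log2 fold change −0.22 (SE 0.30), and low values occurred in both groups. Amt, the aminomethyltransferase that passes the carbon to the carrier, measured 12.8, 13.9, 12.6, 11.3 and 7.84 CPM in the CFA libraries and 12.3, 9.14, 9.51, 9.69 and 5.54 CPM in the HFA libraries. Its means were 11.7 ± 2.35 and 9.23 ± 2.41 (SD, n = 5 each), and the log2 fold change was −0.34 (SE 0.23, unadjusted p = 0.166 in edgeR). T1334 and T2334 were its lowest libraries.

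**Figure D2:**
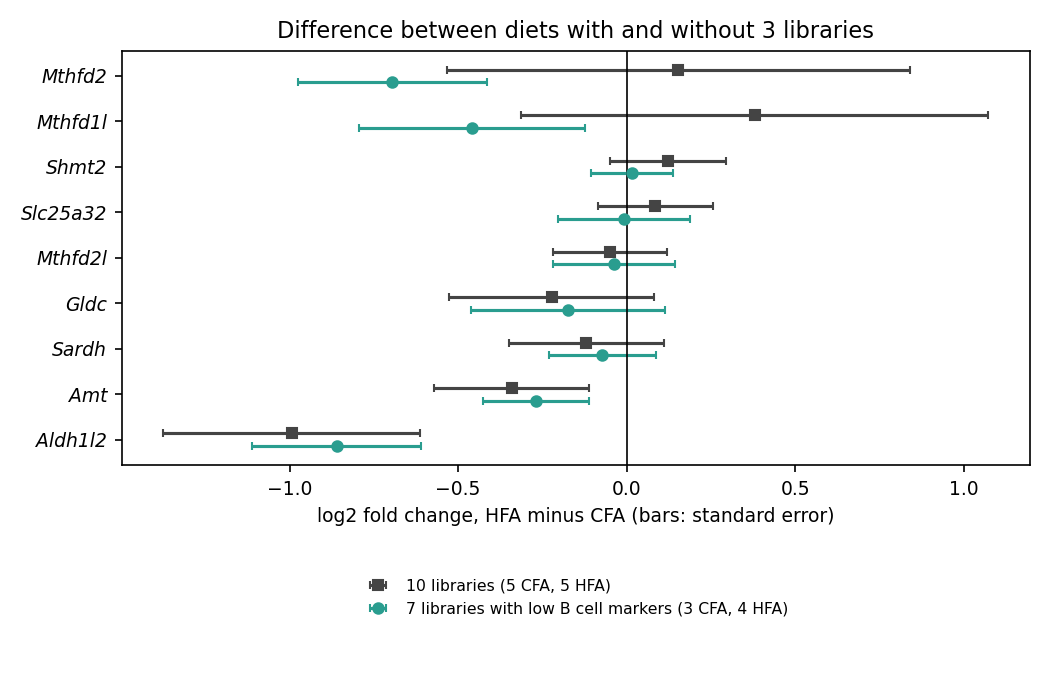
Log2 fold change of HFA against CFA for the 9 tested genes, as points with standard errors, over all 10 libraries (squares) and over the 7 libraries with low B cell markers (circles). Mthfd2 moves from 0.15 to −0.70 and Mthfd1l from 0.38 to −0.46, while Aldh1l2 stays at −0.99 and −0.86.

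Over 10 libraries, 0 of the 9 genes that passed the count filter differed between diets at an adjusted p below 0.05 in edgeR's quasi-likelihood test, where 0% of all 15610 genes tested did. Adjusted p-values of the 9 ran from 0.655 to 0.963. Of the 9, 0 were also called by DESeq2, limma voom, voom with quality weights and edgeR's likelihood ratio test, which called 0.384%, 0%, 6.64% and 0.211% of all genes. DESeq2 gave no p for Mthfd1l. At an unadjusted p below 0.05, 1 of the 9 (Aldh1l2) was called, against 7.36% of all genes. The median log2 fold change was −0.05 over the 9, with 4 higher and 5 lower, against 0.06 over all genes tested.

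Over the 7 libraries with low B cell markers, a selection made after the values had been seen, 8 of the 9 genes were lower in HFA and the median log2 fold change was −0.17, against 0.01 over all genes. At an adjusted p below 0.05, 0 of the 9 were called by edgeR, against 2.98% of all genes. At an unadjusted p below 0.05, 2 of the 9 were called, Mthfd2 and Aldh1l2, both lower. The adjusted p of Mthfd2 was 0.180 and that of Aldh1l2 0.0901 in edgeR. The share of all genes called in this way was 23.4% in either direction and 11.5% in the lower direction. In 2 of the 9, Mthfd1l and Aldh1l2, every HFA library was below every CFA library, as in 10.6% of all genes. With so few genes, counts of 2 beside these shares are not read as particular to the pathway. Markers of dividing cells moved with the same split, with sums of 10 markers of 120 to 279 CPM in the 3 CFA and 15.1 to 56.5 CPM in the 4 HFA libraries. Skeletal muscle sums were 21059 to 40325 CPM in these CFA and 52526 to 66416 CPM in these HFA libraries. T cell sums were 17.3 to 25.9 CPM in these CFA and 9.05 to 15.9 CPM in these HFA libraries. Sums of 5 plasma cell markers were 86.3 to 122.5 and 34.7 to 71.0 CPM. These sums separated the diets as well, while the B cell sums overlapped. Most of the plasma cell sum was Sdc1, at 70.8 to 114 CPM in these CFA and 29.4 to 62.0 CPM in these HFA libraries. The other plasma cell markers each overlapped between diets. Sdc1 was lowest of all 10 libraries in T2334 (17.9 CPM), where Mzb1 was highest (36.2 CPM). The plasma cell list is therefore not read as a measure of plasma cells alone. Tcf7 was the largest part of the T cell sum, at 8.74 to 16.3 and 3.20 to 6.09 CPM. Lck and Cd3g separated the diets too, and the other T cell markers overlapped. Within the 7 libraries, the correlation with the mean log2 CPM of the markers of dividing cells was 0.932 for Aldh1l2 (exact permutation p = 0.000992, adjusted p = 0.0536), 0.796 for Mthfd2 (exact permutation p = 0.028, adjusted p = 0.216) and 0.723 for Mthfd1l (exact permutation p = 0.0246, adjusted p = 0.216). With plasma cell markers it was 0.836 for Aldh1l2, 0.818 for Mthfd2 and 0.847 for Mthfd1l (adjusted p = 0.216 for each, exact permutation test). Other lists reached values as large. Aldh1l2 had −0.845 with white adipocyte markers (exact permutation p = 0.0218, adjusted p = 0.216). Mthfd1l had 0.933 with fibroblast markers (exact permutation p = 0.0764, adjusted p = 0.458). These relations are thus not particular to dividing or plasma cell markers. Diet and the sums of dividing cell, skeletal muscle, T cell and plasma cell markers separate the same libraries and cannot be told apart here.

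**Figure D3:**
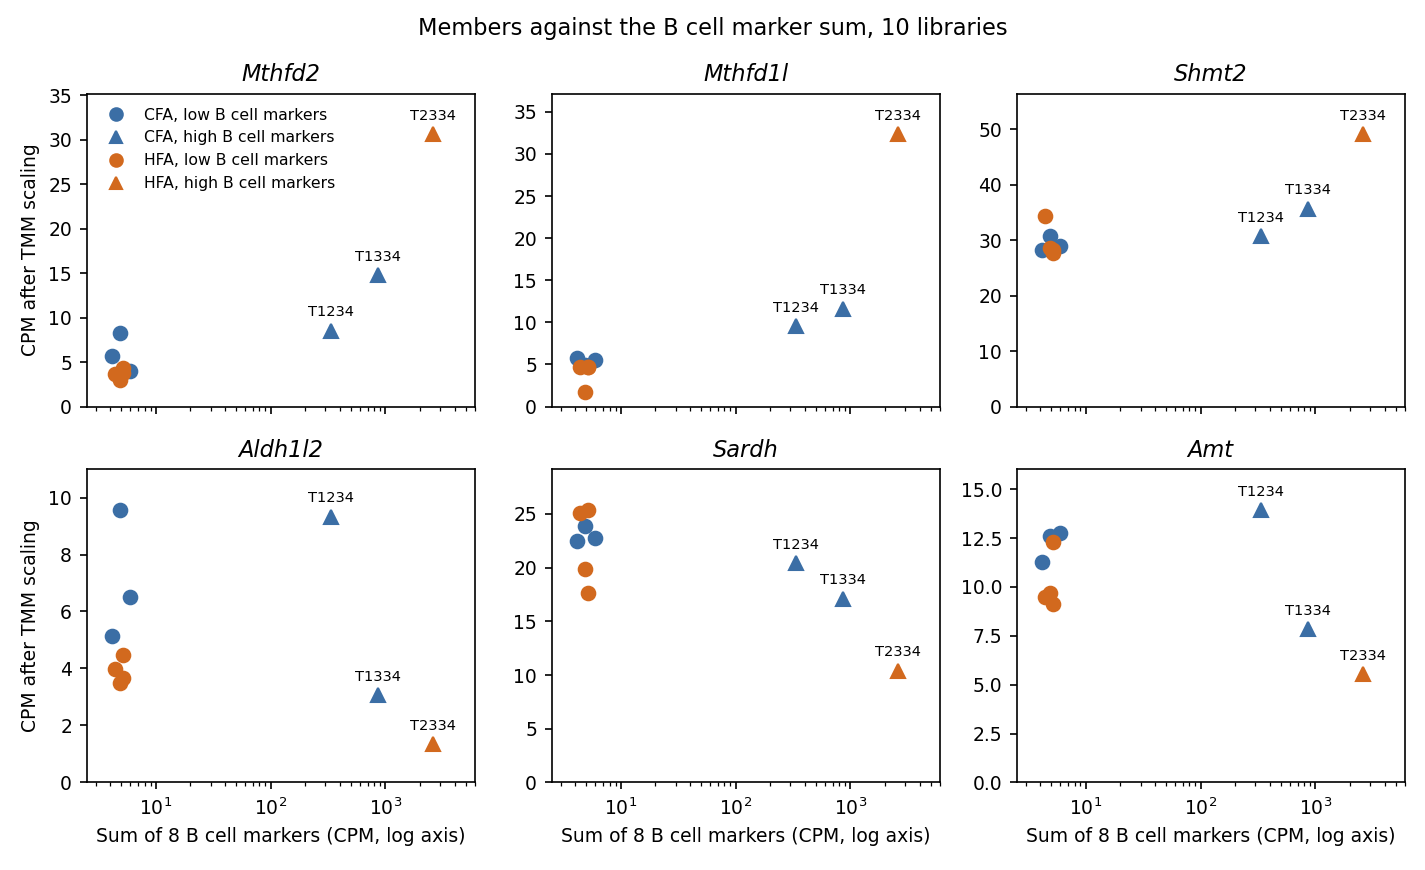
CPM of 6 genes (linear axes from 0) against the summed CPM of 8 B cell markers (log axis) in the 10 libraries, with the 3 libraries of high B cell markers labelled. Mthfd2 and Mthfd1l are highest in T1234, T1334 and T2334, whereas Sardh and Amt are lowest in T1334 and T2334.

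Set beside the lymphocyte markers, the genes did not all behave alike. Mthfd2 and Mthfd1l were the 2 genes for which all of T1234, T1334 and T2334 were above each of the other 7 libraries, at 8.56, 14.8 and 30.6 CPM for Mthfd2 against 3.02 to 8.26. Mthfd1l stood at 9.54, 11.6 and 32.3 CPM against 1.74 to 5.78. For Mthfd2 the gap was narrow, with 8.56 CPM in T1234 against 8.26 CPM in T1314. The share of all genes with such a gap was not taken, so this count of 2 is not read as particular to the pathway. For both genes the order of T1234, T1334 and T2334 was that of their B cell markers. Shmt2 had its highest levels in T2334 and T1334 as well, but T1234 was level with T1314. In T2334, relative to the median of the other HFA libraries, Mthfd2 was 8.22 times as high, Mthfd1l 6.93, Shmt2 1.73 and Slc25a32 1.33. Mthfd2l stood at 0.841 of that median, Amt at 0.577, Gldc at 0.465, Sardh at 0.462 and Aldh1l2 at 0.351. T2334 is also the library lowest in luminal, basal and muscle markers, and its sum of markers of dividing cells was 195 CPM against 15.1 to 56.5 CPM in the other HFA libraries. In the CFA libraries this sum ran from 73.4 CPM in T1334 to 279 CPM in T1314, with 163 CPM in T1234. What part each difference in cell makeup has in these levels was not tested. Since the B cell and T cell sums fall into separate clusters of libraries, no correlation over all 10 was taken with them.

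**Figure D4:**
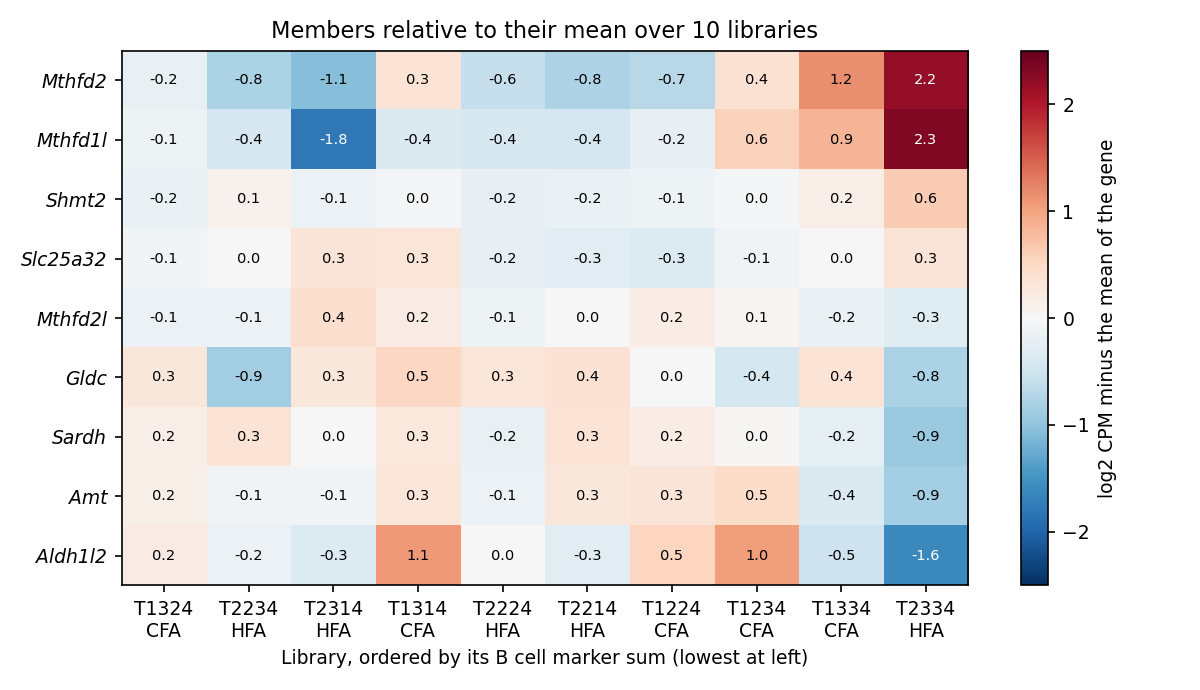
Log2 CPM of each tested gene minus its mean over 10 libraries, with libraries ordered from left to right by their B cell marker sum. The order of the genes was set by hand and nearly follows their values in T2334, so the grouping of colours in that column is not a result. Red marks values above the mean of the gene, and the rightmost library, T2334, is red in the top 4 rows (Mthfd2, Mthfd1l, Shmt2, Slc25a32) and blue in the lower 5.

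Among the genes themselves, Mthfd2 and Mthfd1l varied together, with r = 0.919 and rho = 0.927 over 10 libraries on the log2 CPM scale. The value was 0.814 without T2334 and 0.546 within the 7 libraries with low B cell markers. Aldh1l2 and Amt formed a second pair (r = 0.901, 0.788 without T2334 and 0.617 within the 7), and Sardh and Amt followed (r = 0.848, 0.588 and 0.589). Mthfd2, high in T2334, and Aldh1l2, low there, had r = −0.422 over 10 libraries but 0.851 within the 7. All of these are descriptions over libraries that share their depth and cell makeup.

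The genes most like each member, by Pearson's r over 10 libraries among all 15610 genes tested, were of different kinds. For Mthfd1l they were H2-DMb1 (r = 0.987), Nuak2 (0.985) and H2-Ab1 (0.983), of which H2-DMb1 and H2-Ab1 encode parts of the class II antigen presentation machinery of B cells and other presenting cells. For Mthfd2 they were Hvcn1 (0.982), a proton channel of leukocytes, Cxcr6 (0.974), a chemokine receptor of T cells, and Dnajc9 (0.974), a histone chaperone. For Shmt2 they were Parp1 (0.976), a DNA repair enzyme, Stmn2 (0.975) and Imp4 (0.968), a factor of ribosome assembly. Aldh1l2 was most like Mal2 (0.980), Tpbg (0.979) and Fras1 (0.974), genes expressed in epithelia. Amt was most like Nol4l (0.982), Sema4c (0.978) and Pdgfc (0.976), and Sardh like Abhd14a (0.978), Kyat1 (0.969) and Ctsd (0.967). Slc25a32 was most like Myo5a (0.939), Guf1 (0.917) and Trmt2b (0.906), of which Guf1 and Trmt2b encode proteins acting on mitochondrial translation or its RNA. Alox12 (0.915) and Rgs7bp (0.906) were among the 3 genes most like Gldc, and Mthfd2l was most like Gm14388 (0.922), Pdzd11 (0.875) and Ppp1r14a (0.875). All of these are the highest r picked from 15610 genes, with the 3 libraries of high B cell markers included. Within the other 7 libraries, r was 0.937 to 0.946 for the genes named for Mthfd1l. It was 0.846 to 0.913 for those of Mthfd2 and 0.777 to 0.941 for those of Shmt2.

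The 9 genes were also set against 6 marker lists whose scores did not fall into clusters (plasma cell, proliferating cell, white adipocyte, brown adipocyte, endothelium and fibroblast), 54 relations in all. In a two-sided permutation test, 1 of the 54 passed an adjusted p of 0.05. Mthfd2 was lower where the 6 white adipocyte markers were higher, with r = −0.949 (permutation p = 0.00022, adjusted p = 0.0119) and rho = −0.794 (permutation p = 0.00814, adjusted p = 0.261). Without T2334 and T1334, the libraries farthest from the median of the marker score, r was −0.795. Within the 7 libraries with low B cell markers it was −0.708 (exact permutation p = 0.0869, adjusted p = 0.469), so the call rests on the libraries with high B cell markers. The marker sum was 3749 CPM in T2334 and 7954 CPM in T2234, its highest library.

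Ratios within a library compare the mitochondrial gene with its cytosolic counterpart per kilobase of exon, and cancel the scaling of the library. Shmt2 over Shmt1 was 1.14, 1.34, 1.23, 1.25 and 1.83 in the CFA libraries (mean 1.36 ± 0.274, SD, n = 5). In the HFA libraries it was 2.07, 1.96, 1.71, 1.20 and 2.82 (mean 1.95 ± 0.593, SD, n = 5). Shmt2 was above Shmt1 in every library, and the groups overlapped through T1334 and T2314. Shmt1 itself had a log2 fold change of −0.37 (SE 0.17, unadjusted p = 0.0541 and adjusted p = 0.670 in edgeR).

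Mthfd1l over Mthfd1 was 0.144, 0.249, 0.101, 0.133 and 0.264 in the CFA libraries and 0.0983, 0.108, 0.119, 0.0384 and 0.830 in the HFA libraries. Mthfd1, the cytosolic gene, stayed within 38.2 and 49.0 CPM, so the 3 high ratios were those of T1234, T1334 and T2334. Aldh1l2 over Aldh1l1 was 0.0434, 0.0664, 0.0470, 0.0259 and 0.0181 in the CFA libraries. In the HFA libraries it was 0.0189, 0.0462, 0.0171, 0.0187 and 0.0164. The groups overlapped, since the CFA library T1334 lay among the lower HFA values and the HFA library T2224 among the higher CFA values. Aldh1l1 was low in T2224, at 58.5 CPM, as it was in T2334, at 48.9 CPM, against 84.6 to 140 CPM elsewhere.

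Within mitochondria, Mthfd2 over Mthfd2l per kilobase compares the paralogues, and depends on the exon lengths used (3487 and 6645 bases). The ratio was 0.579, 1.35, 1.20, 1.05 and 2.77 in the CFA libraries and 0.623, 0.787, 0.679, 0.377 and 6.32 in the HFA libraries. On this scale Mthfd2 was the higher of the pair in 4 of 5 CFA libraries and in 1 of 5 HFA libraries, T2334. T1234 and T1334, with high B cell markers, were among these CFA libraries, and T1324 was at only 1.05. In CPM without division by length, Mthfd2 was the higher only in T1334 (14.8 against 10.1) and T2334 (30.6 against 9.23).

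**Figure D5:**
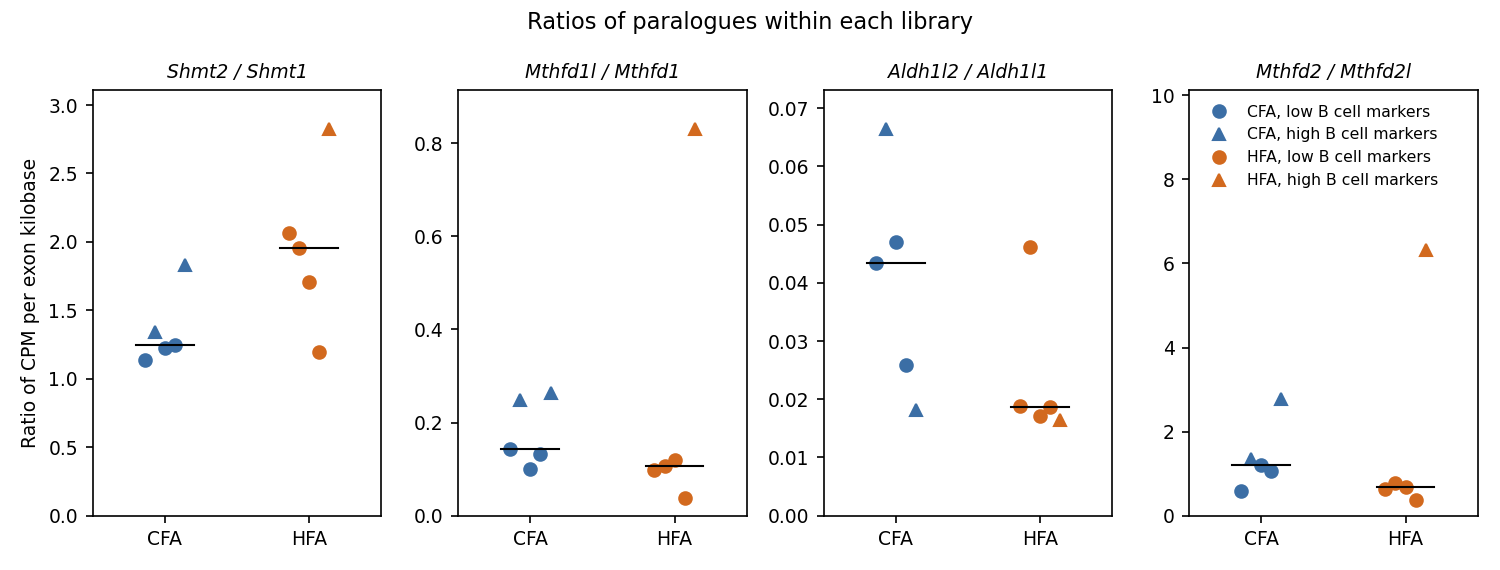
Ratios of CPM per exon kilobase within each library for 4 gene pairs (linear axes from 0), with CFA in blue, HFA in orange, triangles for the libraries with high B cell markers and a line at the median of each group. T2334 reaches 0.830 for Mthfd1l over Mthfd1 and 6.32 for Mthfd2 over Mthfd2l, while Aldh1l2 over Aldh1l1 stays between 0.0164 and 0.0664.

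The neighbours of the pathway were read from the same fit over 10 libraries, and 0 of the genes in the 9 lists below passed an adjusted p of 0.05 in edgeR. Counts of direction are to be read beside the 60% of all 15610 genes that were higher in HFA in this fit and the 40% that were lower. Of the cytosolic folate enzymes and folate uptake genes, 10 of 13 stood lower in HFA and 3 higher, and their median was −0.13 on the log2 scale. Tyms, thymidylate synthase, was the lowest at −0.62 (SE 0.27, unadjusted p = 0.0426 in edgeR) and the receptor gene Folr2 the highest at 0.56 (SE 0.44). Of the serine synthesis genes 0 of 3 were higher, from −0.42 for Psph to 0.00 for Phgdh. Chdh and Aldh7a1, which act on choline and betaine aldehyde, stood at −0.06 and −0.09.

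The partners of Gldc and Amt had values in the other direction, with 5 of 5 higher and a median of 0.16, from 0.05 for Lipt2 to 0.29 for Dld, the shared dehydrogenase of the glycine cleavage system. None of the 5 had an unadjusted p below 0.05. The electron transfer flavoproteins, which accept electrons from SARDH and DMGDH and from fatty acid oxidation, were higher in 3 of 3. Etfdh stood at 0.82 (SE 0.24, unadjusted p = 0.00611 in edgeR), Etfa at 0.63 (SE 0.21, unadjusted p = 0.0120 in edgeR) and Etfb at 0.20 (SE 0.25). The adjusted p of both Etfdh and Etfa was above 0.6, at 0.648 and 0.655 in edgeR. Genes of mitochondrial mass were higher in 7 of 8, from −0.05 for Tomm20 to 0.44 for Vdac1, with 0 at an unadjusted p below 0.05 in edgeR.

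Of the purine synthesis genes, whose pathway uses the formate carbon, 6 of 11 were higher and the median was 0.13. Adsl (0.49, unadjusted p = 0.0427 in edgeR) and Ppat (0.32, unadjusted p = 0.0463 in edgeR) were called before adjustment, and the range ran from −0.18 for Adss to 0.80 for the muscle paralogue Adssl1. Genes for formylation of the mitochondrial initiator tRNA ran from −0.18 for Mars2 to 0.23 for Mtif2. The ATF4 targets and stress factors, a list that in cultured cells rises together with Shmt2 and Mthfd2, were higher in 11 of the 12 tested, with a median of 0.19. Slc7a11, Fgf21 and Gdf15 of this list did not pass the count filter, with 693, 24 and 40 counts in all. Trib3 (0.84, unadjusted p = 0.0136 in edgeR) and Sesn2 (0.59, unadjusted p = 0.0418 in edgeR) were called before adjustment, Chac1 was the highest at 0.87 (SE 0.61) and the amino acid transporter gene Slc7a5 the lowest at −0.81 (SE 0.55). Over the 7 libraries with low B cell markers the same 11 of 12 count was found, with a median of 0.17, where 51% of all genes were higher.

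Over those 7 libraries, 2 of 61 tested genes of the 9 lists passed an adjusted p of 0.05 in edgeR, both of purine synthesis and both higher in HFA, against 2.98% of all genes. They were Adsl (log2 fold change 0.68, SE 0.10, adjusted p = 0.0428 in edgeR) and Adssl1 (1.09, SE 0.23, adjusted p = 0.0453 in edgeR). At an unadjusted p below 0.05, 10 of the 61 were higher and 4 lower, against 23.4% of all genes in either direction. Among them, Tyms stood at −0.93 (SE 0.23), Vdac1 at 0.69 (SE 0.21) and Timm23 at 0.65 (SE 0.26). Vdac1 and Timm23 were named here after their values had been seen. The skeletal muscle sums given above separate these libraries in the direction of the higher genes. Brown adipocyte sums overlapped but reached higher in HFA, at 215 to 1989 CPM against 101 to 371 CPM in these CFA libraries. The part of either tissue was not tested.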

How the data were processed

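Mammary RNA libraries (TruSeq v2) of 10 mice were used, with diet groups taken from the labels. The authors aligned paired reads to mm10 (GRCm38) with TopHat2 2.0.14 and Bowtie2 2.2.5 and deposited whole-number counts per Ensembl gene from HTSeq 0.6.1, without normalization. The strand setting of the counting is not given in the sources used here. Cage, a term of the authors' own model, was not used here because it was not in the labels. From the counts, edgeR 4.0.16 in R 4.3.3 (filterByExpr, TMM, quasi-likelihood test without covariates) compared HFA with CFA over 15610 genes, with Benjamini-Hochberg adjustment and a threshold of 0.05. Standard errors were taken as |log2 fold change| / √F. CPM values carry TMM scaling, and correlations use log2 CPM (prior count 2) and 100000 resamples. Marker lists with a gap above 40% of their range between neighbouring libraries got no correlation. Lengths are the union of exons in GENCODE M21. On simulated counts with 200 genes changed by a log2 fold of 2, 5 against 5 over 15610 genes, the test recovered 153 with 5 false calls. The simulated counts were independent between genes, without the shared differences in cell makeup of these libraries. Smaller changes, such as those of the members, were not simulated. The counts have no molecular identifiers, and SDs are between mice.

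All 10 members are described, the genes with the highest and lowest log2 fold change and any with an unadjusted p below 0.05 are named from each pathway list, and the 3 genes with the highest r are named for each tested member, except 1 that is not reported here. The members, lists and tests were chosen with earlier results of these data known. Alternatives were RLE scaling, a filter of CPM above 1 in 5 or more libraries or none, the likelihood ratio test, DESeq2 1.42.0, limma 3.58.1 voom with and without quality weights, the second title digit or the last title digits as a term, a B and T cell marker covariate and each library left out, and for the correlations a prior count of 0.5, the median over markers, Spearman's rho and values centred within diets. Leaving out the 3 libraries with high B cell markers was added after seeing the data.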

Additional observations from a re-analysis of the deposited data

Results flagged for a closer look

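In groups of 5, a library was marked where its gap to the nearest other library exceeded 0.710 of the range (Dixon's 95% value), which marked 6 of 28 groups tested. The 28 include the groups of Dmgdh, which had 0 counts throughout and could not be marked. Chance marks about 1 in 20 where values are normally distributed and groups independent, which was not checked for the values and does not hold for the groups. The HFA library T2334 was marked 4 times as the highest of its group, for Mthfd2 (30.6 CPM, the others 3.02 to 4.31), Mthfd1l (32.3 CPM, the others 1.74 to 4.74), Mthfd1l over Mthfd1 (0.830, the others 0.0384 to 0.119) and Mthfd2 over Mthfd2l (6.32, the others 0.377 to 0.787). These 4 values are not independent, since the ratios hold the same counts. T2334 has the highest B cell and T cell marker sums of the 10 libraries. The CFA library T1334, with the next highest sums, was marked for Shmt2 over Shmt1 (1.83, the others 1.14 to 1.34). The HFA library T2224, with low B cell markers, was marked for Aldh1l2 over Aldh1l1 (0.0462, the others 0.0164 to 0.0189), where both the higher Aldh1l2 (4.49 CPM) and the low Aldh1l1 (58.5 CPM) enter.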

How the results depend on the processing

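The number of genes past an adjusted p of 0.05, 0 in the quasi-likelihood test, was 33 in the likelihood ratio test, 60 in DESeq2, 1037 in voom with quality weights, 3 with the B and T cell covariate and 469 without the 3 libraries with high B cell markers, and 0 to 6 with 1 library left out (6 without T2334). None of the 9 tested members was among them under any of these alternatives. Members at an unadjusted p below 0.05, 1 in the main test, were 2 with the replicate block by the last title digits (Aldh1l2 and Amt, 6.88% of all genes), 2 with the covariate (Aldh1l2 and Amt, 15% of all genes), 2 without the 3 libraries (Mthfd2 and Aldh1l2, 23.4% of all genes), and 0 to 3 with 1 library left out, 0 without T1234 (4.28% of all genes) or T1314 (3.50%) and 3 without T2334 (Mthfd2, Mthfd1l and Aldh1l2, 25.8% of all genes). The median log2 fold change of the members, −0.05, was −0.23 in limma voom and −0.29 with the block, and ran from −0.12 to −0.02 with 1 library left out. Of 21 alternatives, the sign changed in 7 for Mthfd2, 5 for Mthfd1l, 4 for Slc25a32 and 2 for Shmt2, and in 0 for the other 5 tested genes. Aldh1l2 ran from −1.19 to −0.82. The 1 relation with a marker list was 0 with Spearman's rho, 0 with the median over markers, 0 without the 3 libraries, and 0 to 2 with 1 library left out, 0 without T1234, T1334 or T2334. The cause of these shifts was not tested. The labels give no replicate numbers, and libraries that share their last title digits correlated at 0.298, −0.294, 0.111 and 0.410, so the digits were not taken as a pairing. Depth limits the low genes: Aldh1l2 had 21 to 147 and Mthfd1l 19 to 508 counts per library.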
